A study of Homo sapiens with 4 samples.

Results

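The genes described here encode the replacement histone variants whose messages carry a poly(A) tail. They were chosen by gene symbol as 9 of the 62700 genes counted: the linker histone gene H1-10, the H2A variant genes H2AZ1, H2AZ2, H2AX, H2AJ, MACROH2A1 and MACROH2A2, and the H3.3 genes H3-3A and H3-3B. The question was whether their RNA levels differed when RNA polymerase II lacked the threonine at the fourth position of its C-terminal repeats. HEK293T, a human embryonic kidney cell line that carries the SV40 large T antigen, was transiently transfected with an α-amanitin-resistant RPB1, the largest subunit of the polymerase. The construct had either a wild-type C-terminal domain (WT) or one with alanine in place of threonine at the fourth position of the repeats (T4A). From 1 day after transfection all cells, WT included, received 2.5 μg/ml α-amanitin for 48 hours, which removes the endogenous polymerase. Each group held 2 poly(A) RNA libraries, which the study treats as biological replicates. The p-values below measure spread between libraries only, and those of single genes borrow most of their variance estimate from the other genes tested. Both groups are therefore transfected populations that depend on an ectopic polymerase, and cells that took up no construct were not separated from the others.

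Histones package DNA into nucleosomes. Most of the supply is made in S phase from replication-dependent genes, whose messages have no introns and end in a stem-loop instead of a poly(A) tail. Replacement variants are made throughout the cell cycle and are exchanged into chromatin outside replication. H2A.Z marks promoters and enhancers, H3.3 accumulates over transcribed genes and telomeres, H2AX is phosphorylated around DNA breaks, and macroH2A carries a large non-histone domain and is linked to silent chromatin. H1.10 (also called H1X) is a linker histone that binds the DNA entering and leaving the nucleosome.

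Histone messages enter a poly(A) library through their tails, so the ends of the canonical transcripts are shown first, 5′ to 3′ and as DNA letters from the GENCODE release 44 transcripts. Capitals mark the polyadenylation hexamer AATAAA in the first 3 sequences and the histone stem-loop in the others. The first 3 are members, H2AX is the member that holds a stem-loop, and H2AC6 and H1-2 are replication-dependent genes shown for contrast.
H2AZ1: gtggataagttcAATAAAggtcatatccca
H1-10: ttttttgggcacAATAAAgcgtttaaacct
H3-3B: ggatgagactaaAATAAAatttttgaagtt
H2AX: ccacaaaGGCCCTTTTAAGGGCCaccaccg
H2AC6: aacccaaaGGCTCTTTTCAGAGCCccccta
H1-2: aaacccaaaaGGCTCTTTTCAGAGCCacca

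In H2AZ1 the hexamer ended 14 bases before the transcript end, and in H1-10 it ended 16 bases before. In H2AX the stem-loop lay at bases 553 to 568 of the 1592-base transcript, so 1024 bases of annotated transcript followed it. In H2AC6 only 6 bases followed it, and in H1-2 only 4. The letters AATAAA occurred in the last 50 bases of 5 of the 9 members (55.6%), of 3 of the 63 replication-dependent genes (4.76%) and of 63.4% of all canonical protein-coding transcripts. The stem-loop, searched on the transcript strand as a paired stem of 6 bases, from GG to CC, around a loop of 4 bases that starts with TTT, occurred in 1 of 9 members (11.1%), in 58 of 63 replication-dependent transcripts (92.1%) and in 0.332% of all canonical protein-coding transcripts. H2AX thus carried the stem-loop of the replication-dependent class inside a longer annotated message.

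Library totals were 23465029 and 19257217 counts for T4A, and for WT they were 33063535 and 24695291. POLR2A, which encodes RPB1, stood at 5428 ± 70.5 CPM (counts per 1000000 of the normalized library size; SD, n = 2) in T4A and 3268 ± 713 in WT. POLR2A was called higher in T4A (log2 fold change 0.73, adjusted p = 7.23e-07), and the WT libraries differed, at 3772 and 2764 CPM. Its level differed between the groups along with the C-terminal domain, so these cannot be told apart for the members. These counts cannot separate construct from endogenous transcript, so the level is no check of the mutation. Known HEK293 genes summed to between 197 and 201 CPM in T4A and between 218 and 219 in WT, but did not move together. TUBB2B was higher in T4A (47.5 and 48.9 against 37.0 and 37.3 CPM in WT). LIN28B (22.2 and 26.0 against 39.2 and 35.6), NEFL (112 and 113 against 128 and 126) and PAX2 were lower, and NEFM overlapped. The blood cell list stayed under 4 CPM in all libraries, the fibroblast list between 34.8 and 41.7 with COL1A2 at 0 in all libraries, and the germ cell list below 1 CPM, with 4 of 10 genes at 0. The part of these lists in the results was not tested. Of 18139 genes tested, 1935 (10.7%) were called higher in T4A and 2351 (13.0%) lower at an adjusted p under 0.05, 23.6% in all. The higher calls were 45.1% of these calls with the TMM normalization, 61.0% with upper quartile scaling and 31.2% with library totals alone.

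All 9 members passed the filter on low counts. In T4A, 5 of 9 rose (H1-10, H2AZ1, H2AX, H3-3A and H2AZ2) and none fell, beside 10.7% and 13.0% of all genes tested. H2AJ, MACROH2A2, MACROH2A1 and H3-3B did not pass the test. The median log2 fold change of the 9 was 0.19, beside -0.01 over all genes tested. For 8 of 9 members both T4A libraries lay above both WT libraries, which held for 28.5% of all genes tested. The opposite order held for 0 of 9 members and for 30.5% of all genes. MACROH2A1 is among the 8 with a log2 difference of only 0.03, which was -0.05 with library totals alone. These shares of all genes cover all transcript lengths, and the order was not counted by length class. The steps were small, from 1.14-fold to 1.36-fold among the 5 that passed. In bulk RNA such a difference cannot be assigned to more cells of a kind or to more RNA per cell.

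**Figure D1:**
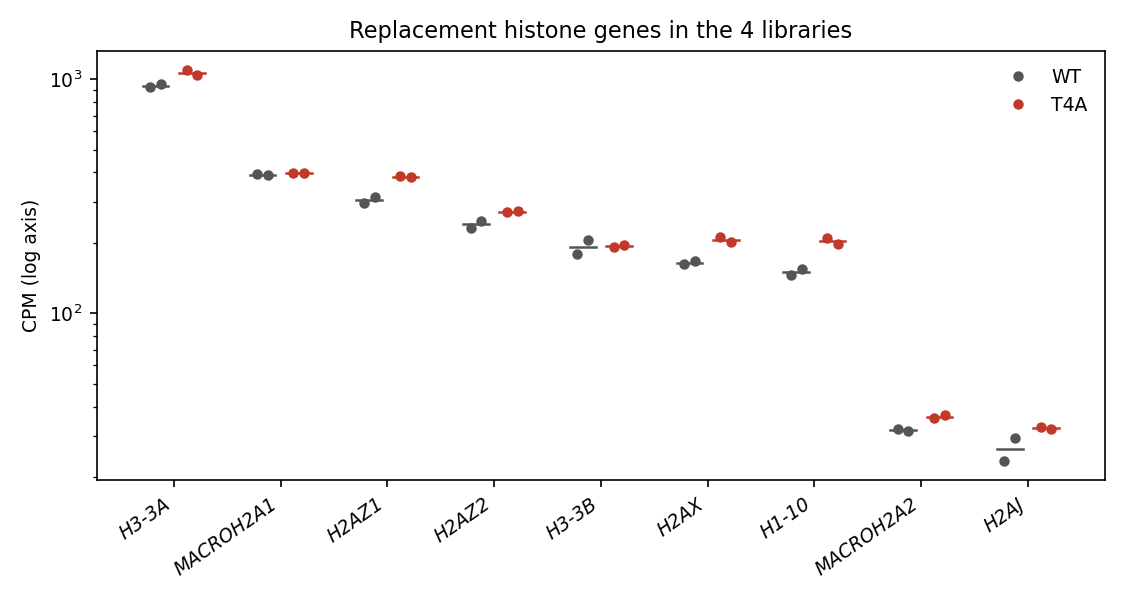
CPM of each member in the 4 libraries on a log axis, with T4A and WT libraries as points of different colour and bars at the group means. The T4A points lie above the WT points for every member except H3-3B, where WT at 179 and 206 CPM brackets T4A at 193 and 197.

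H1-10 lies on chromosome 3 at 129314771 to 129316286 on the minus strand (GRCh38) as a single exon of 1516 bases. Its level was 209.7 and 198 CPM in the T4A libraries and 146 and 155 CPM in the WT libraries. The groups did not overlap, and the gap between them was larger than either spread. H1-10 rose 1.36-fold, with a log2 fold change of 0.44 ± 0.05 (SE; 95% interval 0.33 to 0.55; adjusted p = 3.01e-06). It had the smallest p of the 9, and its call held in each of the 14 other settings tried. Reads of the overlapping antisense gene H1-10-AS1, which shares 345 exonic bases, cannot be told apart without strand. That gene was assigned 79 to 191 counts a library beside 3732 to 4882 for H1-10. These counts do not bound the reads in the shared bases, and the part of such reads was not tested. Other members also share exonic bases with genes of the opposite strand, and the same limit holds for them. MACROH2A1 shares 4706 with PITX1-AS1 and 166 with ENSG00000270021, MACROH2A2 986 with AIFM2 and H2AZ1 223 with H2AZ1-DT. H3-3B shares 179 with UNK and H3-3A 48 with H3-3A-DT. UNK was called lower in T4A (log2 fold change -0.41, adjusted p = 0.0454), and the other overlapping genes named here were not called.

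The replication-dependent linker histone gene H1-2 also rose, with 33.7 and 34.8 CPM in T4A against 21.2 and 22.1 in WT (log2 fold change 0.66 ± 0.10, adjusted p = 3.32e-05). The other tested genes of this kind, H1-4 (-0.67, adjusted p = 0.477) and H1-5 (-0.55, adjusted p = 0.493), did not pass. They held only 10 to 59 counts a library.

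The H2A.Z genes encode proteins that differ at only a few residues. H2AZ1 lies on chromosome 4 at 99948088 to 99950275, minus strand, with 5 exons and a canonical transcript of 866 bases. It stood at 385 and 382 CPM in T4A and at 295 and 315 in WT. H2AZ1 rose 1.26-fold (log2 fold change 0.33 ± 0.04, interval 0.24 to 0.42, adjusted p = 8.46e-06), and the T4A libraries were close to each other.

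H2AZ2, on chromosome 7 at 44826889 to 44848126, minus strand, has 5 exons and a longer canonical transcript of 3026 bases. Its level was 271 and 273 CPM in T4A and 231 and 249 in WT. H2AZ2 rose 1.14-fold (0.18 ± 0.05 on the log2 scale, interval 0.09 to 0.28, adjusted p = 0.00634). This call rested on the first WT library: without it the log2 fold change was 0.14 and the adjusted p 0.114.

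Summed, the H2A.Z messages stood at 655 ± 0.900 CPM in T4A and 544 ± 26.8 in WT. H2AZ2 supplied 41.4% and 41.7% of these counts in T4A and 43.9% and 44.2% in WT. The share was thus lower in T4A by 2.50 percentage points, with no overlap between the libraries and separate Wilson 95% intervals (40.6% to 42.6% against 43.2% to 45.0%). These intervals cover counting error only, and the exact two-sided permutation p was 0.333, the smallest that 2 libraries against 2 allow. Under both length corrections given further on the direction between the paralogs turned, with log2 fold changes of 0.32 for H2AZ2 beside 0.15 for H2AZ1 on exonic length and 0.20 beside 0.07 on canonical length.

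H2AX lies on chromosome 11 at 119093874 to 119095465, minus strand, as a single exon of 1592 bases. It stood at 212 and 202 CPM in T4A and at 162 and 167 in WT, again with no overlap. H2AX rose 1.26-fold (log2 fold change 0.33 ± 0.05, interval 0.23 to 0.43, adjusted p = 4.43e-05). The gene tables count whole genes, so the message that ends at the stem-loop shown above and the longer message were not separated.

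H2AJ, on chromosome 12 at 14774405 to 14778002, plus strand, encodes an H2A that accumulates in senescent cells. It was much rarer, at 32.7 and 32.1 CPM in T4A and 23.5 and 29.4 in WT. Its log2 difference of 0.30 ± 0.11 (interval 0.07 to 0.52) was close in size to that of H2AX but missed the threshold (adjusted p = 0.0518). The WT libraries were the wider pair, and H2AJ passed in 7 of the 14 other settings. Without the first WT library its log2 difference was 0.15 (adjusted p = 0.585), and without the second it was 0.46 (adjusted p = 0.0105).

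The H3.3 genes encode the same protein from different messages. H3-3A, on chromosome 1 at 226061831 to 226072019, plus strand, was the most abundant member, with 1092 and 1041 CPM in T4A and 923 and 955 in WT. H3-3A rose 1.14-fold (log2 fold change 0.18 ± 0.03, interval 0.11 to 0.26, adjusted p = 0.000507). H3-3B, on chromosome 17 at 75776434 to 75779779, minus strand, stood at 193 and 197 CPM in T4A and at 179 and 206 in WT. Its groups overlapped, and the log2 difference was 0.02 ± 0.06 (interval -0.10 to 0.14, adjusted p = 0.862), which leaves room for a change of up to 0.14.

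H3-3A supplied 84.5% ± 0.638 of the H3.3 counts in T4A and 83.0% ± 1.08 in WT (SD, n = 2), and the libraries did not overlap, at 85.0% and 84.1% against 83.8% and 82.3%. The difference was 1.52 percentage points (exact permutation p = 0.333, the smallest possible). It was 2.28 without the first WT library and 0.752 without the second. The log2 fold changes of H3-3A and H3-3B were 0.13 and 0.12 after the correction on exonic length and -0.06 and -0.01 after that on canonical length. H3-3A has many processed pseudogenes, and 72.7% of the 50-base words of its canonical transcript also occurred in transcripts of 14 other annotated genes. Its 37 annotated pseudogenes held between 1850 and 3198 counts a library, or 8.01% to 10.3% of the H3-3A counts of the same library, most of them at H3P6. With these counts added, the difference in share was 1.34 percentage points. The annotated gene ENSG00000290018, outside that sum, shared 37.2% of the words and held 850 to 1540 counts. The sources used here do not state how reads with several matches were treated, so how far the level of H3-3A is off is unknown. For H3-3B the shared words were 8.28% and all fell in the germ cell gene H3-5, which held 1 to 3 counts a library.

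The macroH2A genes did not pass the test. MACROH2A1, on chromosome 5 at 135334381 to 135399887, minus strand, stood at 399 CPM in both T4A libraries and at 395 and 388 in WT. The log2 difference was 0.03 ± 0.04 (interval -0.05 to 0.11, adjusted p = 0.665). MACROH2A2, on chromosome 10 at 70052846 to 70112282, plus strand, stood at 35.7 and 36.7 CPM in T4A and 32.2 and 31.4 in WT, without overlap. Its log2 difference was 0.19 ± 0.09 (interval -0.00 to 0.37, adjusted p = 0.151), the same size as that of H2AZ2 and H3-3A with a wider error.

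MACROH2A2 supplied 8.20% and 8.42% of the macroH2A counts in T4A and 7.55% and 7.49% in WT, 0.795 percentage points more in T4A (exact permutation p = 0.333). In the plot of paralog shares the points of T4A and WT did not overlap in any pair, with H2AZ2 lower and H3-3A and MACROH2A2 higher in T4A. The Wilson intervals were separate for H2AZ2 and overlapped between the groups for H3-3A and MACROH2A2.

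**Figure D2:**
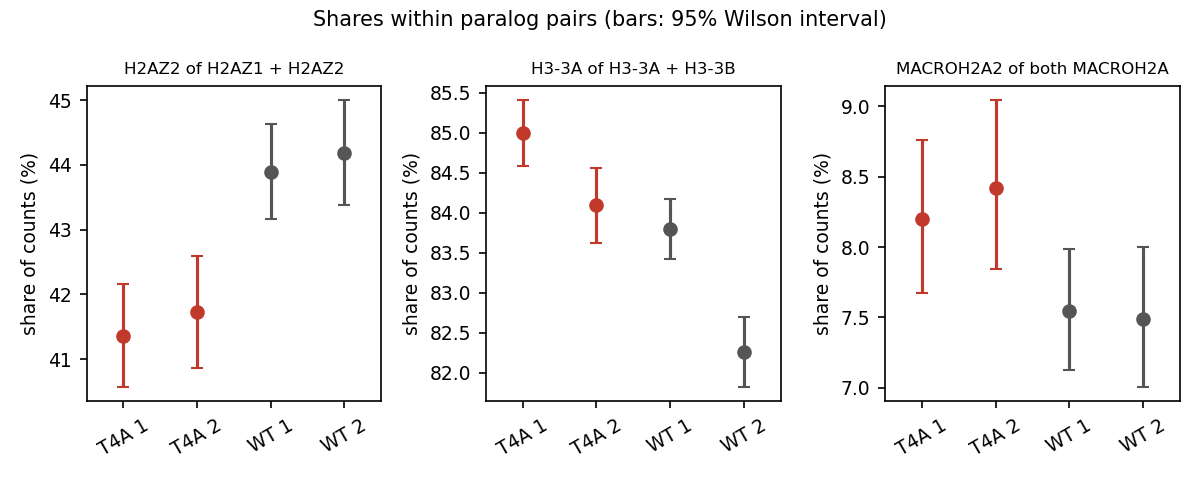
Share of counts (%) supplied by 1 gene of each paralog pair in the 4 libraries, with Wilson 95% intervals as bars. The panels show H2AZ2 at 41.4% to 44.2%, H3-3A at 82.3% to 85.0% and MACROH2A2 at 7.49% to 8.42%.

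Per kilobase of canonical transcript, H3-3A was the most abundant member at 997 ± 34.1 CPM/kb in T4A and 878 ± 20.8 in WT. H2AZ1 followed with 442 ± 2.56 and 352 ± 16.1, then MACROH2A1 with 208 ± 0.0266 and 204 ± 2.36. H1-10 and H2AX formed the next pair, at 135 ± 5.27 and 130 ± 4.33 CPM/kb in T4A and at 99.2 ± 4.49 and 103 ± 2.23 in WT, and did not differ from each other beyond their spread in either group. H2AZ2 (90.0 ± 0.434 and 79.3 ± 4.27), H3-3B (72.0 ± 1.05 and 71.1 ± 7.14) and H2AJ (52.3 ± 0.667 and 42.7 ± 6.70) were lower, and MACROH2A2 was lowest at 18.7 ± 0.382 and 16.5 ± 0.283. The order of the 9 was the same in both groups except for H1-10 and H2AX. It depends on the length used. Per kilobase of exonic length MACROH2A1 stood at 23.5 CPM/kb in T4A and 23.0 in WT. That is below H2AZ2 (38.9 and 34.2) and H3-3B (31.8 and 31.3), while H3-3A remained highest (279 and 245).

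Transcript length moved with the T4A difference over all genes, so its values are given beside those of the members. With the tested genes split into 5 classes of about equal size by canonical transcript length, the median log2 fold change ran from 0.28 in the shortest class (71 to 1257 bases) through 0.17, 0.03 and -0.15 to -0.33 in the longest (5238 bases or more). H2AZ1, H2AJ and H3-3A fall in the shortest class, where 721 genes (20.1%) were called higher and 49 (1.37%) lower. H2AX, H1-10 and both macroH2A genes fall in the next (1258 to 2210 bases; 644 genes called higher and 54 lower), and H2AZ2 and H3-3B in the middle class (2211 to 3391 bases; 9.66% and 5.99%). No member falls in the longer classes. Against the median of its own class, H1-10 stood at 0.44 and H2AX at 0.33 beside 0.17, H2AZ2 at 0.18 beside 0.03 and H2AZ1 at 0.33 beside 0.28. H2AJ (0.30 beside 0.28), MACROH2A2 (0.19 beside 0.17) and H3-3B (0.02 beside 0.03) lay close to theirs, while H3-3A at 0.18 and MACROH2A1 at 0.03 stood below.

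Offsets that removed the trend on exonic length in each library gave log2 fold changes of 0.23 for H1-10 (adjusted p = 0.00449), 0.15 for H2AZ1 (0.0176), 0.13 for H3-3A (0.0121) and 0.32 for H2AZ2 (9.37e-05). Under the same offsets H2AX stood at 0.12 and no longer passed (adjusted p = 0.109), while MACROH2A1 passed at 0.33 (9.47e-06) and MACROH2A2 at 0.48 (0.000976). Exonic length joins the exons of all isoforms, which makes the macroH2A genes long at 17013 and 14988 bases beside canonical transcripts of 1917 and 1932. With offsets on canonical length instead, an alternative chosen after seeing the data, only H1-10 (0.25, adjusted p = 0.00385) and H2AZ2 (0.20, adjusted p = 0.00954) passed. The other members then lay between -0.11 and 0.15. Thus H1-10 and H2AZ2 were called higher with either correction and without one, and the other calls depended on how length was treated. The call of H2AZ2 also rested on the first WT library, as given above, and was lost with library totals alone (0.11, adjusted p = 0.140). H2AZ2 too has a longer exonic length, 7003 bases beside a canonical 3026.

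**Figure D3:**
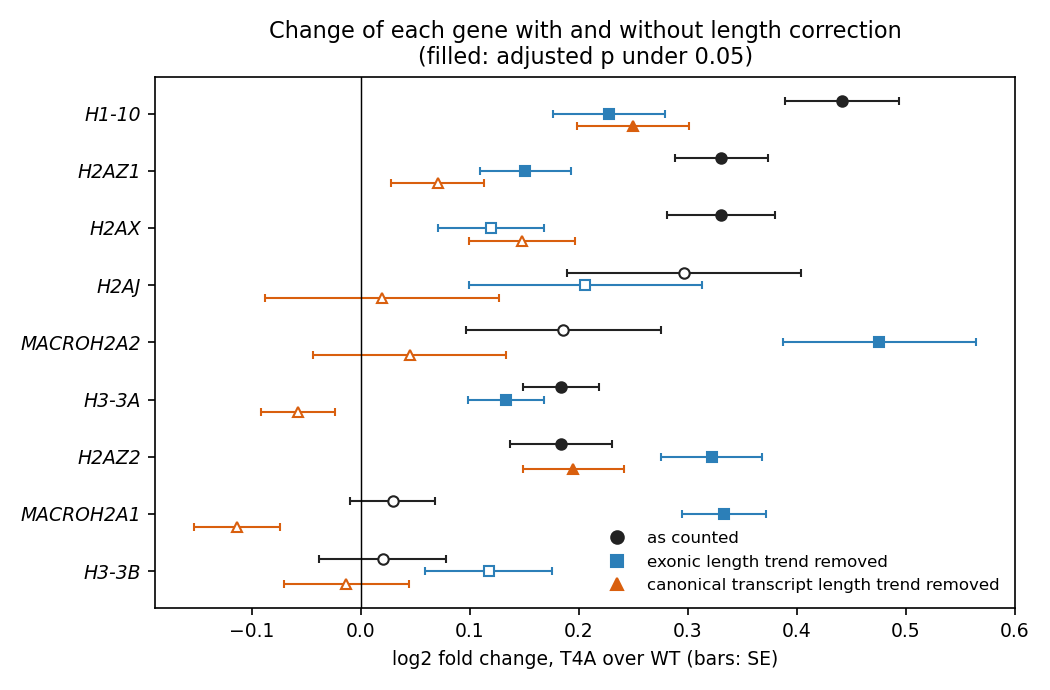
Log2 fold change of T4A over WT for the 9 members with SE bars, as counted (circles) and with the trend on exonic length (squares) or canonical transcript length (triangles) removed, filled where the adjusted p was under 0.05. All 3 points are filled for H1-10 and H2AZ2, none for H2AJ and H3-3B, and those of MACROH2A1 run from -0.11 to 0.33.

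**Figure D4:**
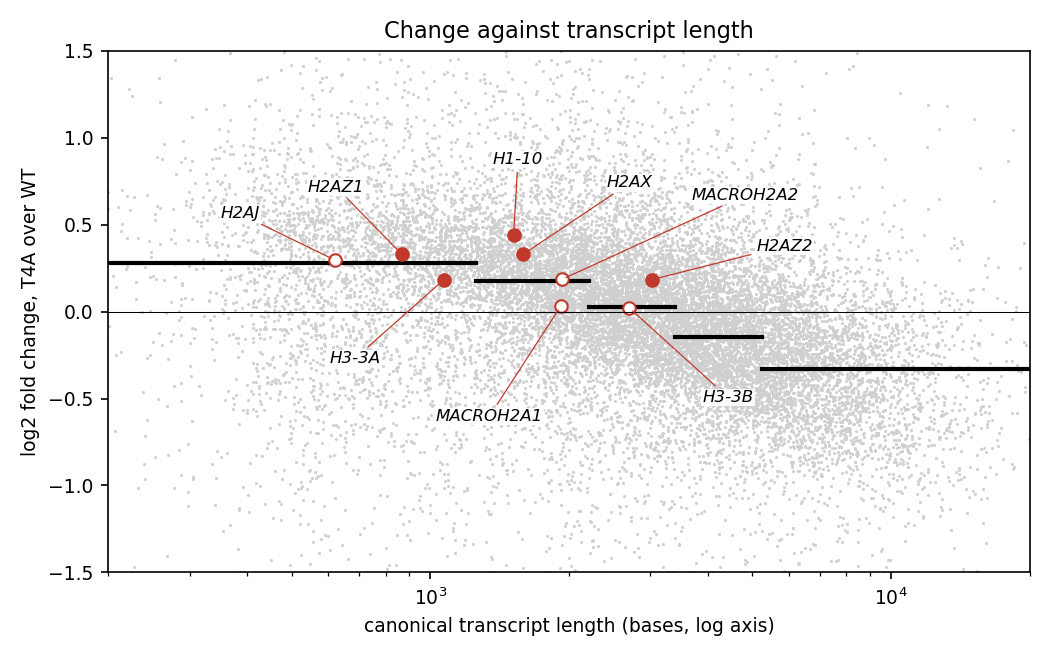
Log2 fold change of T4A over WT against canonical transcript length (bases, log axis) for tested genes (grey) and the 9 members (red, filled where called). Black bars are the medians of the 5 length classes, from 0.28 to -0.33, and genes beyond the axis limits are not drawn.

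The members' change was set beside the replication-dependent histone genes, most of whose messages lack a poly(A) tail. Beside 10.7% called higher and 13.0% lower over all genes tested, 3 of the 34 tested among 63 such genes rose and 1 fell. Their median log2 fold change was 0.04. Those that rose were H1-2, H2BC12 (120 ± 8.24 against 96.8 ± 3.07 CPM; 0.31, adjusted p = 0.00109) and H2BC5 (13.6 ± 0.402 against 9.60 ± 0.548 CPM; 0.50, adjusted p = 0.0178). H2BC18 fell from 37 and 15 counts in WT to 4 and 1 in T4A (adjusted p = 0.0249). H1-2 kept its call under both length corrections and without each library. H2BC12 lost it under both corrections (0.056 and 0.022), as did H2BC5 (0.26 and 0.21), which also lost it without either WT library, and H2BC18 lost it with limma-voom, without the second T4A library and without either WT library. The summed level of the 63 replication-dependent genes was 284 and 295 CPM in T4A and 246 in both WT libraries. For the 9 members it was 2830 and 2761 CPM in T4A and 2385 and 2495 in WT. The log2 ratio of the summed means, T4A over WT, was 0.24 for the replication-dependent genes and 0.20 for the members. Within families, replacement genes supplied 96.1% ± 0.0435 of H2A counts in T4A and 96.0% ± 0.0680 in WT. For H3, with CENPA counted as a replacement gene, the share was 98.7% ± 0.0131 and 98.5% ± 0.0295 (SD, n = 2; exact permutation p = 0.333 for each, the smallest possible). These are shares of counts in poly(A) libraries without length correction, not of the histone RNA of the cell. The median exonic length was 621 bases in the replication-dependent genes tested and 3826 in the members. CENPA, the centromeric H3, stood at 5.29 and 3.24 CPM in T4A and at 3.07 and 3.55 in WT, which did not pass the test (log2 difference 0.38 ± 0.28, adjusted p = 0.396). The 10 germ cell variants were too low to test.

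The factors that place these variants in chromatin were described by counts over lists. Beside these counts stand 10.7% of all genes tested called higher and 13.0% called lower. In the H2A.Z exchange list (genes of the SRCAP and TIP60 complexes, INO80, ANP32E and PWWP2A), 3 of 15 genes rose and 3 fell, with a median of -0.08. TRRAP, a large scaffold of TIP60, fell to 25.5 ± 0.241 CPM from 52.5 ± 0.136 (log2 fold change -1.04, adjusted p = 3.18e-08), and ANP32E, which removes H2A.Z, fell to 242 ± 8.94 from 302 ± 9.38 (-0.32, adjusted p = 2.60e-05). ZNHIT1, a SRCAP subunit, stood at 142 and 139 CPM in T4A and 102 and 105 in WT and rose (log2 fold change 0.44, adjusted p = 6.55e-06), and so did the ATPase gene RUVBL2 (0.31, adjusted p = 9.71e-05). ZNHIT1 (0.17) and RUVBL2 (0.12) lost their calls with the canonical length correction. Of the H3.3 deposition and reading list 4 of 7 tested genes fell and none rose. These were ATRX, the remodeller that places H3.3 at telomeres with DAXX (36.3 ± 3.11 against 62.1 ± 0.572 CPM; log2 fold change -0.77, adjusted p = 1.05e-06), UBN2 (-0.67) and CABIN1 (-0.20) of the HIRA complex, and the H3.3 reader ZMYND11 (-0.64). ATRX kept its call under both length corrections. UBN2 lost its call under both (-0.36 and -0.19), ZMYND11 under that on exonic length (-0.37), and CABIN1 changed sign under both and lost its call without the second T4A library.

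Among 13 general histone chaperones 1 rose and 4 fell, again beside 10.7% and 13.0% of all genes tested. SUPT16H, the large subunit of FACT, fell to 186 ± 9.58 CPM from 254 ± 5.73 (-0.45), RBBP4 (-0.28) and SUPT6H (-0.25) also fell, and the H3-H4 chaperone ASF1B rose (0.25). Only SUPT16H of these 4 kept its call under both length corrections. RBBP4 and SUPT6H lost theirs and turned positive with that on canonical length, and SUPT6H also lost it without the first WT library (-0.16, adjusted p = 0.160). ASF1B lost its call under both corrections (0.056 and 0.083), with library totals alone, without the second T4A library (0.17) and without the first WT library. In the H2AX phosphorylation and reading list 2 of 10 tested genes rose and 5 fell. The 3 kinases that phosphorylate H2AX around breaks fell: PRKDC to 289 ± 7.60 CPM from 499 ± 15.5 (-0.79, adjusted p = 9.47e-11), ATM (-0.60) and ATR (-0.71). PRKDC kept its call under both length corrections, while ATM (-0.21 and -0.14) and ATR (-0.36 and -0.35) lost theirs. PPP4C, the catalytic subunit of a phosphatase of phosphorylated H2AX, rose to 323 ± 2.09 CPM from 225 ± 8.51 (0.52, adjusted p = 4.23e-08). Of the histone mRNA 3′-end factors, 3 of 8 rose and 2 fell. The stem-loop binding protein gene SLBP rose to 16.1 ± 0.0488 CPM from 11.0 ± 1.33 (0.54), as did LSM10 (0.43) and ZNF473, which rests on 57 and 43 counts in T4A against 24 and 26 in WT, while LSM11 fell (-0.63). SLBP and LSM10 lost their calls under both length corrections and without the second WT library. LSM11 lost its call with the canonical correction (-0.33), without the first T4A library (-0.41) and without the second WT library, and ZNF473 lost its call without the first WT library. The medians of these lists were -0.23 for H3.3 deposition, -0.05 for the chaperones, -0.24 for H2AX kinases and readers and -0.32 for the 3′-end factors, beside 0.19 for the members. The median exonic length was 5599 to 9388 bases in these 5 lists and 3826 in the members, and the part of length in the difference was not tested. Of tested genes in the longest of 5 classes by exonic length (8261 bases or more), 32.1% were called lower and 4.21% higher.

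**Figure D5:**
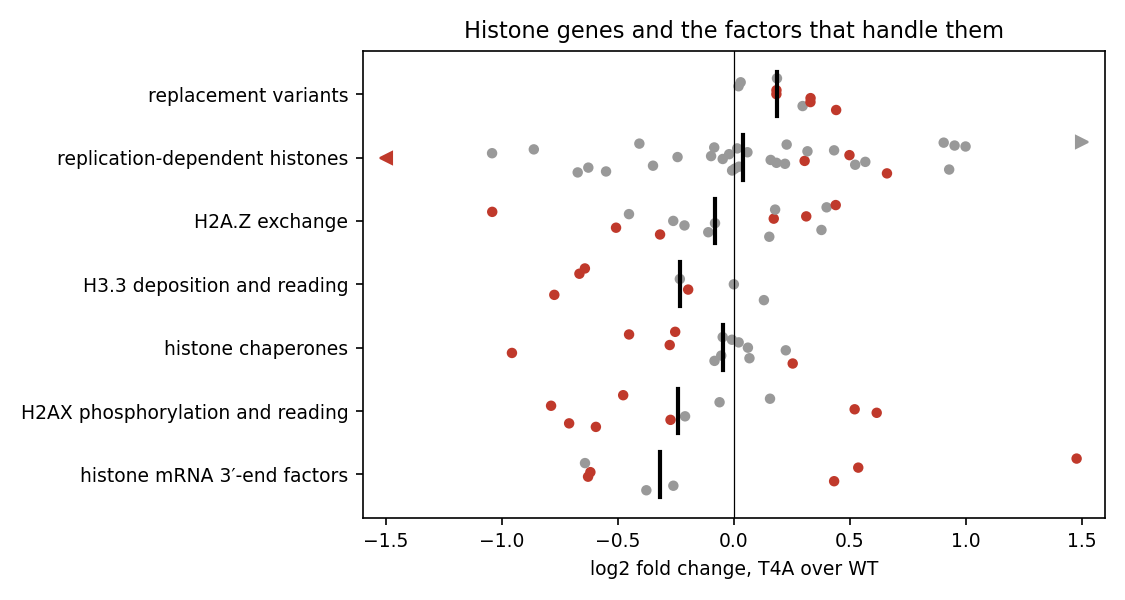
Log2 fold change of T4A over WT for each tested gene of the members and the related lists, red where called and grey otherwise, with a bar at each median. The members' median is 0.19, the medians of the 5 lists of chromatin and 3′-end factors run from -0.05 to -0.32, and arrowheads mark genes beyond the axis.

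Over the 4 libraries the most alike members were H2AZ1 and H2AX, at a Euclidean distance of 0.0529 between their centred log2 CPM profiles, followed by H3-3A and H2AZ2 at 0.0713. The protein-coding genes nearest to H1-10 among 13597 were ECH1 (0.0157), SEC11C (0.0171) and DTYMK (0.0221), which encode a peroxisomal and mitochondrial enzyme of fatty acid oxidation, a signal peptidase subunit and thymidylate kinase. Their log2 fold changes were 0.43, 0.43 and 0.44, beside 0.44 for H1-10. This closeness follows from the choice, since these genes were picked by their distance over the same libraries.

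The promoters of H2AZ1 and H2AX are shown because this pair was the most alike among the members. Their distances to genes outside the members were not computed. They span 250 bases before to 50 after the RefSeq start, 5′ to 3′ on the minus strand of GRCh38.p14, at chr4:99950226-99950525 and chr11:119095416-119095715. Capitals mark CCAAT on either strand (CCAAT or ATTGG) and TATAAA.
H2AZ1: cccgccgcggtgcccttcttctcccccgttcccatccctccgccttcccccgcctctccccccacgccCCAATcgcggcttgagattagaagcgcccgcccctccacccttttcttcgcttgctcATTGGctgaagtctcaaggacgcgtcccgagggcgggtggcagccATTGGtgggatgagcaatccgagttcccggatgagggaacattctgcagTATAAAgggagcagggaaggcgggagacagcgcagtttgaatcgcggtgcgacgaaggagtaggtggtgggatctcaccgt
H2AX: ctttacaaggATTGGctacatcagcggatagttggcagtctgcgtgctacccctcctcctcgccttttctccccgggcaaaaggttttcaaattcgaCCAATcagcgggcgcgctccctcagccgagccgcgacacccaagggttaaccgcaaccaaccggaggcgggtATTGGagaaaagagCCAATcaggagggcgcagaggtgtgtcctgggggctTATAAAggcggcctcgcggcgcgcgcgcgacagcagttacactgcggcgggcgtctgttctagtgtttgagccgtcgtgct

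H2AZ1 held 3 matches to CCAAT and 1 to TATAAA, and H2AX held 4 and 1. At least 1 CCAAT on either strand was found in 6 of 9 member promoters (66.7%), in 36.6% of 15238 protein-coding promoters of that length and in 84.5% of those of replication-dependent histone genes. TATAAA on either strand was found in H1-10, H2AX, H2AZ1 and H3-3B (44.4%), beside 9.56% of protein-coding and 67.2% of replication-dependent promoters. H1-10 held no CCAAT and H3-3B held 4, so the letters did not separate the members that rose from those that did not pass.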

How the data were processed

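Poly(A) RNA from 4 HEK293T libraries (T4A and WT, 2 each) was analysed. The deposited values are gene counts. Per the labels and the study's methods, the authors trimmed reads with Trimmomatic 0.38, aligned them to GRCh38 with HISAT2 2.2.1, unstranded, and counted with featureCounts 2.0.1 on a GENCODE annotation. The sources used here do not state how reads with several matches were handled.

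Symbols and lengths came from GENCODE release 44 (60877 of 62700 IDs matched), and coordinates and promoters from RefSeq. Counts were filtered with filterByExpr, normalized by TMM and tested with edgeR 4.0.16 (quasi-likelihood, group only, R 4.3.3), with Benjamini-Hochberg adjustment over 18139 genes and calls at an adjusted p under 0.05. The common biological coefficient of variation was 0.114. CPM are TMM-scaled. Standard errors are the log2 fold change over the root of F, and 95% intervals use 18.98 degrees of freedom. Of these, 16.98 came from the variance prior estimated over all genes tested. Shares were compared by exact two-sided permutation over libraries. Replicates differed beyond counting noise, so each library counts once.

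The members and lists were chosen with earlier results of these data known. All members, POLR2A, CENPA, up to 4 genes of smallest p in each list, and the 3 genes nearest to the member of smallest p were named. Genes with exons that overlap those of a member on the opposite strand were named too, and of the pseudogenes only H3P6. The alternatives were other scalings, filters, tools (DESeq2 1.42.0, limma 3.58.1), a replicate block, length offsets and leaving out each library. No protein sequences were used here. 1 gene of the lists and the shares that count it are not reported here.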

Additional observations from a re-analysis of the deposited data

How the results depend on the processing

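H1-10 kept its call in 14 of 14 alternatives, H2AZ1 and H3-3A in 13, and H2AX and H2AZ2 in 12. The members called higher were 5 as reported, 8 with upper quartile scaling and 2 with the canonical length offset (chosen after seeing the data), and between 4 and 6 when 1 library was left out. Upper quartile scaling moved the median of all genes by 0.08 and library totals alone by -0.08, a size that matters beside changes this small. H2AZ2 lost its call with library totals alone (0.11, adjusted p = 0.140). Genes called lower were 2351 as reported, 1426 with the exonic length offset, 999 with the canonical one, and 1583 to 2545 when 1 library was left out. Genes called higher fell from 1935 to 1293 with the canonical offset.

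With the canonical offset the sign turned for H3-3A (-0.058), MACROH2A1 (-0.11), H3-3B (-0.013), CABIN1 (0.13), RBBP4 (0.076) and SUPT6H (0.039). With the exonic offset it turned for CABIN1 (0.021). With library totals alone it turned for MACROH2A1 (-0.048) and H3-3B (-0.059), and without a filter for H3-3B (-0.0066). Leaving out 1 library gave -0.073 to 0.12 for H3-3B (negative without WT replicate 1) and -0.028 to 0.68 for CENPA (negative without T4A replicate 1). Apart from the length offsets themselves, the cause was not tested.

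Libraries with the same replicate number did not deviate together (r = -0.0038 for the first T4A and WT libraries), so the numbers were not read as pairs. With the replicate block, 2012 genes were called higher and 2432 lower, and H2AJ passed (0.30, adjusted p = 0.0243).

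With 2 libraries a group, the smallest p of the exact permutation test of a share was 0.333, and H2AJ and MACROH2A2, the rarest members at about 30 CPM, had the widest errors.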
